A study of Mus musculus with 10 samples.

Results

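The genes for the proteins of the cytosolic ribosome were followed in cultured primary mouse lung fibroblasts, 5 wild-type libraries and 5 libraries labelled as knockout of Mrc2. Members were the protein-coding rows named Rpsa, or Rpl or Rps followed by digits and optional letters, without the Rps6k kinase genes and without rows ending in -ps. This rule found 79 of the 54532 genes in the count table, 47 of the large subunit and 32 of the small subunit. It leaves out ribosomal protein genes such as Rps3a1, Rplp0, Rplp1, Rplp2, Fau, Rpl7l1 and Rpl22l1 by their spelling, and these are given separately. Of the members, 76 passed the filter on low counts and were tested among 14360 genes. The other 3, Rpl10l, Rpl3l and Rpl39l, had too few counts.

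Both groups were lung fibroblasts grown without a stimulus in medium with 10% fetal bovine serum, and RNA was poly(A)-selected before sequencing. The groups differ by genotype, WT against Mrc2 KO, where Mrc2 encodes an endocytic receptor for collagen. The strain, the age and the knockout allele are not given in the labels, and the labels put all 10 libraries in 1 batch. Wild-type and knockout library names form separate number series, so anything that goes with those series cannot be told apart from genotype. Replicates are numbered as biological ones in the titles, but nothing else says that they came from separate animals, so p-values measure the spread between these samples.

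Each cytosolic ribosome carries about 1 copy of nearly every ribosomal protein, so cells need these proteins in matched amounts. Their mRNAs are abundant and short, and in mammals they start with a stretch of C and T (U in the RNA) called the 5′ terminal oligopyrimidine, or TOP, motif. The kinase complex mTORC1 acts through this motif, with the RNA-binding protein Larp1, to set how much of these mRNAs is translated, so much of the control of the family is at translation and not at the mRNA level measured here.

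Of the 79 members, 60 had a promoter window in RefSeq (GRCm38.p6), 72 windows in all, each running from 250 bases before to 50 after the annotated start. The bases around the annotated start are given for 6 of the 8 members with the smallest p values and for Rps6, Rpsa, Rpl26 and Rpl11, which are described further on, because the TOP stretch lies there. Rps21 has a pair of windows, and the upstream one is given. Each has 15 bases before the annotated first base and 15 from it on, in the direction of transcription, and capitals mark the longest stretch of C and T near the start.
Rps28, chr17:33824548-33824577, minus strand: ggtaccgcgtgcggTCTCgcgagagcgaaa
Rpl39, chrX:37085208-37085237, minus strand: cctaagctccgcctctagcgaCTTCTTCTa
Rpl38, chr11:114668565-114668594, plus strand: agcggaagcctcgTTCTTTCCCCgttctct
Rpl37, chr15:5116598-5116627, plus strand: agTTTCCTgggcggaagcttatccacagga
Rps21, chr2:180257364-180257393, plus strand: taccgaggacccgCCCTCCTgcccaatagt
Rps27, chr3:90213634-90213663, minus strand: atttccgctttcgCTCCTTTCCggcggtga
Rps6, chr4:86857353-86857382, minus strand: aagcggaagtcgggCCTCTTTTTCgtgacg
Rpsa, chr9:120127751-120127780, plus strand: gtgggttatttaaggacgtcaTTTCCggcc
Rpl26, chr11:68901551-68901580, plus strand: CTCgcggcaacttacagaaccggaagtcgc
Rpl11, chr4:136053379-136053408, minus strand: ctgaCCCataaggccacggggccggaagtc

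The stretch runs across the annotated first base in Rpl38, Rps27, Rps6, Rps21 and Rps28, with 10, 9, 10, 7 and 4 letters of C and T. In Rpsa, Rpl26 and Rpl11 the longest stretch has 5, 3 and 3 letters and does not cross it. In Rpl39 it starts 6 bases after the annotated first base, and in Rpl37 it starts 13 bases before it. A stretch of at least 8 C or T letters on the transcribed strand within 25 bases of the start was in 32 of the 72 member windows (44.4%) and in 19.7% of all 32851 RefSeq windows. A C at the annotated first base followed by 4 C or T letters was in 13 of 72 (18.1%), against 2.51% of all windows. The letters CCGGAAG, a core bound by ETS factors, were found on either strand in 25 of 72 (34.7%) against 8.86%. TATAAA in the 50 bases before the start was in 0 of 72, against 2.63% of all windows. Annotated starts can lie some bases from the start used in a cell, so these shares describe letters and not sites.

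Libraries held 19603933 to 29944615 counts, of which 3, taken as the detection floor, corresponded to 0.100 to 0.153 CPM (counts scaled to 1e6 per library, here with TMM-scaled library sizes except for the floor). Mrc2 lay between 568 and 1027 CPM in wild type and between 206 and 282 CPM in knockout, and was lower in every knockout library than in any wild-type library (log2 ratio of knockout to wild type -1.80, edgeR adjusted p = 0.0029). Counts per gene do not show whether the remaining reads came from a deleted part. The summed level of the 7 fibroblast markers was 11337 to 21765 CPM in wild type and 17359 to 30281 CPM in knockout. Most of it was Col1a1 and Col1a2, with means of 8540 and 7080 CPM in wild type and 14765 and 10022 CPM in knockout. Dcn and Lum had log2 ratios of -0.45 and -0.77, the other 5 had values above 0, and none of the 7 was called. The 7 leukocyte markers summed to 2203 to 10977 CPM in wild type and 2633 to 5895 CPM in knockout, and none was at 0 in all libraries. Most of that sum was Lyz2, with means of 5297 and 3454 CPM. Epithelial markers stayed at or below 29.02 CPM in sum and endothelial markers at or below 8.29 CPM, while the 4 mesothelial markers summed to 66.0 to 371 CPM in wild type and 51.5 to 161 CPM in knockout. The 4 smooth muscle and pericyte markers summed to 814 to 2355 CPM in wild type and 1512 to 2158 in knockout. The part of these markers in the results was not tested.

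The libraries differed more by replicate than by genotype in how much of the RNA came from ribosomal protein genes. The members took 4.81, 3.22, 6.68, 4.08 and 5.07% of all counts in wild-type replicates 1 to 5, and 3.40, 4.08, 4.21, 3.89 and 6.69% in knockout replicates 1 to 5. Wild-type replicate 3 and knockout replicate 5 stood above the other 8 libraries, and the groups overlapped over almost their whole range. The means were 4.77 ± 1.29% in wild type and 4.45 ± 1.29% in knockout (SD, n = 5 each), a difference smaller than either SD. Large subunit members took 2.67 ± 0.670% and 2.497 ± 0.704% of counts, and small subunit members 2.10 ± 0.616% and 1.96 ± 0.585%, in wild type and knockout. In bulk RNA, fewer cells with a high level and less of this RNA in each cell cannot be told apart.

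**Figure D1:**
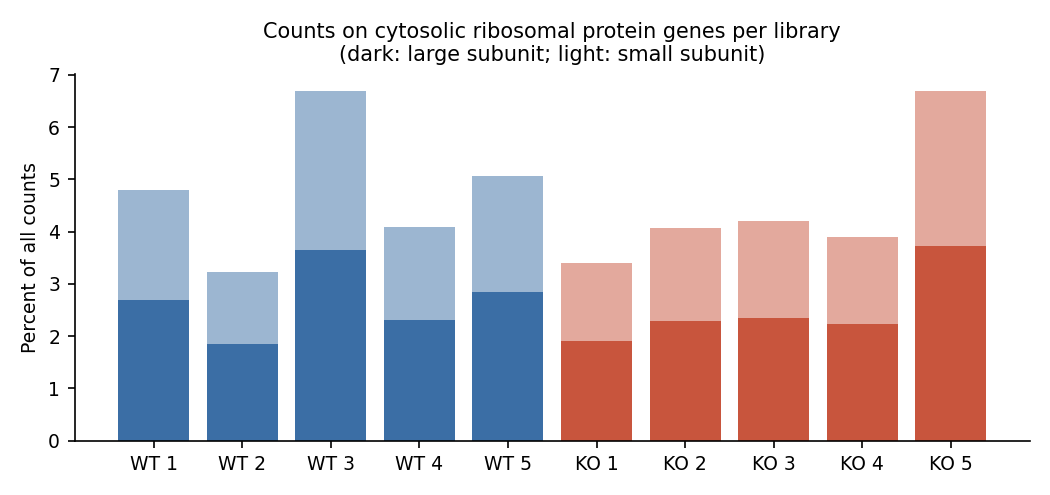
Percent of all counts in each library (WT, wild type; KO, Mrc2 knockout; replicates 1 to 5) that fell on the 79 ribosomal protein genes, with large subunit members as the dark part and small subunit members as the light part of each bar. WT 3 at 6.68% and KO 5 at 6.69% are the tallest bars, and WT 2 at 3.22% is the lowest.

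The 2 libraries with the highest share were also the 2 in which short genes as a whole were highest. The slope of log2 level on log2 gene length over all other genes, after centring each gene over the libraries, was -0.0603, 0.0857, -0.151, -0.0043 and -0.0901 in wild-type replicates 1 to 5. In knockout replicates 1 to 5 it was 0.142, 0.0803, 0.0991, 0.0566 and -0.158. A lower slope means relatively more counts on short genes, and 4 of 5 wild-type but 1 of 5 knockout libraries were below 0. Members are short genes in coding length, though the table's gene length, the union of their annotated exons, had a median of 1734 bases. The library name of knockout replicate 5 also stands apart from the run of names of the other 4 knockout libraries.

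No member passed the test over all genes, and few genes of any kind did. Of 76 tested members 0 were called at an adjusted p under 0.05 (edgeR's quasi-likelihood test, Benjamini-Hochberg over all tested genes), where 2 of 14360 genes were called, or 0.0139%, so 0 among 76 genes does not tell the family from other genes. Without adjustment 3 members, all higher in knockout, had p under 0.05, against 7.19% of all genes higher and 6.1% lower at that threshold. DESeq2 called 1 member, Rps29, against 1.69% of all genes called. The log2 ratio of knockout to wild type was above 0 for 25 of 76 members and for 48.4% of all tested genes. Its median was -0.06 over the members and -0.01 over all genes. Large subunit members had a median of -0.06 with 14 of 44 above 0, and small subunit members -0.07 with 11 of 32 above 0. For 0 members did the 5 values of one genotype lie clear of the 5 of the other, against 2.05% of all genes.

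The sign of the family's median rested on single libraries. Without knockout replicate 5 the median was -0.27 and 10 members were above 0, against 47.3% of all genes, and without wild-type replicate 3 it was 0.12 with 55 above 0. Without both it was -0.09 with 25 above 0, against 47.1% of all genes, and without knockout replicate 1 or wild-type replicate 2 the number above 0 was 45 or 16. A further fit had each library's length slope as a covariate, taken here over all tested genes with the members included. The median was 0.28 and 75 of 76 members were above 0, against 48% of all genes. At an unadjusted edgeR p under 0.05, 44 were higher, against 6.9% of all genes. In that fit 0 members were called, against 0.0279% of all genes. The slope comes from the same counts and differs between the genotypes. Members also vary together, so the 44 are not separate events.

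Of the small subunit, Rps29 and Rps28 had the smallest p of all members. Rps29 (ENSMUSG00000034892, mm10 chromosome 12, 69157722 to 69159186, minus strand) encodes a zinc-binding protein of the small subunit head, and mutations in its human counterpart cause Diamond-Blackfan anaemia. Its level was 119.8, 92.6, 195, 106 and 168 CPM in wild-type replicates 1 to 5 and 318, 426, 487, 136 and 301 CPM in knockout replicates 1 to 5. Knockout replicates 1, 2, 3 and 5 were above every wild-type library, and replicate 4 lay within the wild-type range. The means were 136 ± 43.5 and 334 ± 135 CPM (SD, n = 5 each), with a log2 ratio of 1.29 (SE 0.31, edgeR adjusted p = 0.231, and 0.0015 before adjustment). DESeq2 gave an adjusted p of 0.0103.

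Rps28 (ENSMUSG00000067288, chromosome 17, 33819027 to 33824562, minus strand) encodes a small protein near the mRNA exit channel. It was at 173, 122, 249.6, 145 and 175 CPM in wild type and 316, 399.8, 499, 150.2 and 327 in knockout, replicates 1 to 5 in order. The same 4 knockout libraries were above all of wild type, and replicate 4 was again within its range. The means were 173 ± 48.2 and 338 ± 128 CPM (SD, n = 5 each), with a log2 ratio of 0.97 (SE 0.28, edgeR adjusted p = 0.265, DESeq2 adjusted p = 0.054). Rps28 overlaps Kank3 on the opposite strand, with 59389 counts for Rps28 and 1389 for Kank3 over all libraries. Without knowing whether strand was used in counting, reads in the overlap cannot be told apart.

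Rps21, which in yeast acts in the maturation of the small subunit rRNA, was at 254, 137, 387, 225 and 293 CPM in wild type and 312, 435, 378, 159 and 525 in knockout. Here only replicates 2 and 5 of the knockout were above all wild-type libraries, and the log2 ratio of 0.48 (SE 0.31) did not pass the edgeR test (adjusted p = 0.494). Rps27, a zinc-binding protein, was at 246, 167, 422, 224 and 311 CPM in wild type and 295, 456, 325, 209 and 542 in knockout. The genotypes overlapped (log2 ratio 0.42, SE 0.29, edgeR adjusted p = 0.507). Of the 50-base windows of the Rps27 transcript, 98.65% also occur in transcripts of other genes, so its counts depend on how shared reads were assigned. Its paralog Rps27l, a p53 target in human cells, had a log2 ratio of -0.04 (SE 0.25, edgeR adjusted p = 0.948).

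Of the large subunit, Rpl39, Rpl37, Rpl38 and Rpl36al had the smallest p. Rpl39 (ENSMUSG00000079641, chromosome X, 37082520 to 37085402, minus strand) encodes a small protein that lines the tunnel through which the new peptide leaves. It was at 199.8, 144, 282, 172 and 217 CPM in wild type and 267, 306, 358, 179 and 318 in knockout. Knockout replicates 2, 3 and 5 were above every wild-type library (means 203 ± 52.3 and 286 ± 68.0 CPM, SD, n = 5 each). The log2 ratio was 0.50 (SE 0.21, edgeR adjusted p = 0.355, and 0.0361 before adjustment).

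Rpl38 (ENSMUSG00000057322, chromosome 11, 114668524 to 114672331, plus strand), whose loss of 1 copy gives the Tail-short mouse its skeletal defects, was at 204, 123, 326, 157 and 216 CPM in wild type and 262, 384, 321, 159 and 437 in knockout. Knockout replicates 2 and 5 were above the wild-type range (log2 ratio 0.61, SE 0.29, edgeR adjusted p = 0.393). Rpl37 (ENSMUSG00000041841, chromosome 15, 5116645 to 5119140, plus strand), a zinc-binding protein of the large subunit, was at 335, 233, 416, 268 and 295 CPM in wild type and 335, 491, 432, 287 and 507 in knockout. Knockout replicates 2, 3 and 5 were above all wild-type libraries (log2 ratio 0.41, SE 0.20, edgeR adjusted p = 0.391). Rpl36al was counted at 1.49 to 2.19 CPM in wild type and 1.10 to 1.84 CPM in knockout, with 4 knockout libraries under the lowest wild-type library (log2 ratio -0.42, SE 0.23, edgeR adjusted p = 0.432).

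**Figure D2:**
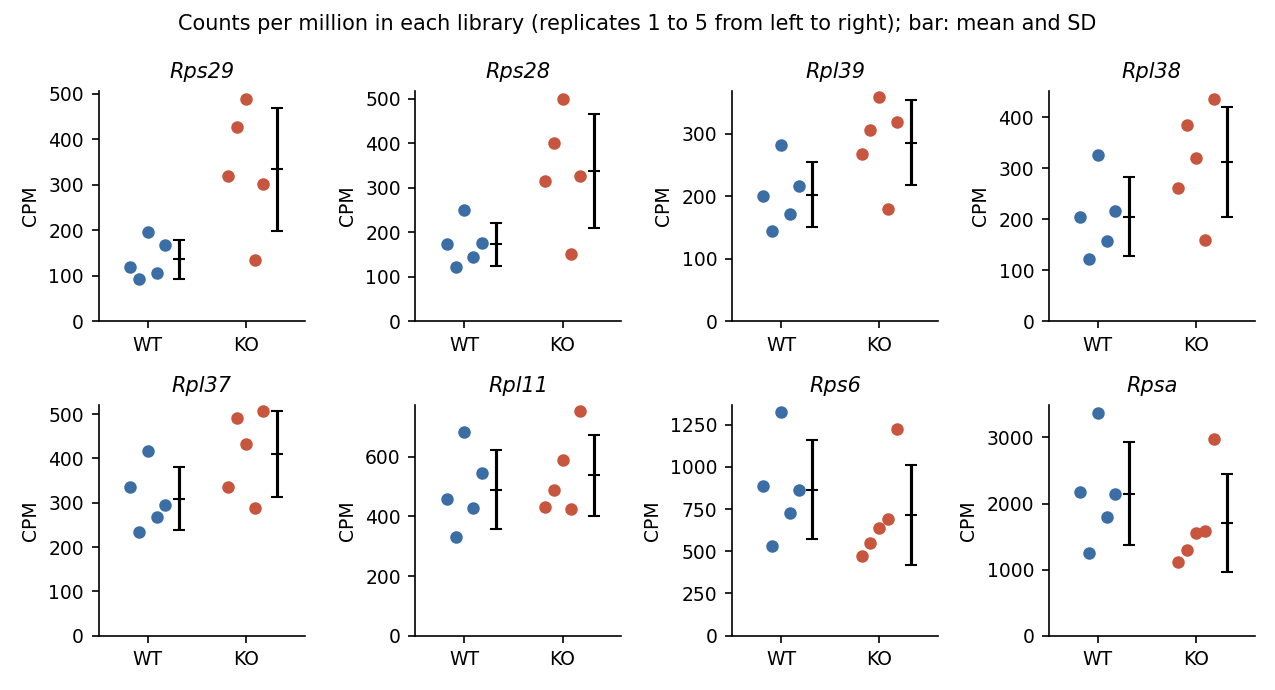
Level in CPM (linear axes from 0) of 8 ribosomal protein genes in each library, wild type in blue and knockout in red, with replicates 1 to 5 from left to right in each group and the mean and SD (n = 5) as a black bar. Rps29 and Rps28 have 4 knockout points above all wild-type points and 1 within their range, while for Rps6 and Rpsa only KO 1 lies outside the wild-type range, under it, and WT 3 and KO 5 are highest in each group.

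Within the family, the difference between genotypes ran with coding length. Of the 11 members with a coding length of at most 300 bases, 10 had a log2 ratio above 0, with a median of 0.42, and Rps27l was the exception at -0.04. The medians were -0.01 for the 26 members over 300 and up to 450 bases, -0.12 for the 19 over 450 and up to 600, and -0.14 for the 20 longer ones, of which 1 was above 0. Over the 76 members Spearman's rho of log2 ratio on coding length was -0.57, a correlation across genes that share the same libraries, given with no p.

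Other short genes had values on the other side of 0 more often. Of 259 other tested genes with a coding length of at most 300 bases, 37.5% had a log2 ratio above 0 and the median was -0.08, and over 12826 other genes rho was 0.38. The member of shortest coding length, Rpl41, a peptide of the large subunit with 75 bases, was above 0 by less than the median of these 11 and had a log2 ratio of 0.08 (SE 0.28, edgeR adjusted p = 0.909). Rpl41 was at 779.8 ± 299.9 CPM in wild type and 825 ± 294 in knockout (SD, n = 5 each). The members' rho kept its sign when each library was left out, from -0.61 to -0.50, and in all other settings tried, from -0.64 to -0.53. Longer members also differed from other genes in the same range of coding length in the share with a log2 ratio above 0. Over 300 and up to 450 bases it was 46.2% of members and 27.2% of other genes. Over 450 and up to 600 bases it was 10.5% and 26.9%, and over 600 bases 5% and 51.5%. That last range has no upper limit. Its 20 members reach 1257 bases at most (Rpl4), and its 11201 other genes can be far longer, so it does not compare genes of like length.

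**Figure D3:**
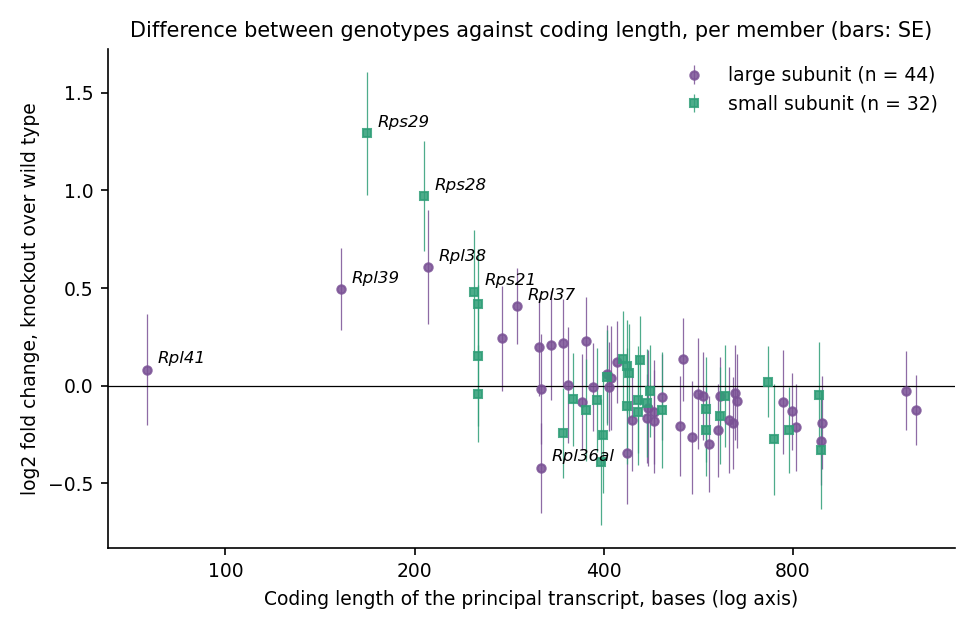
Log2 ratio of each of the 76 tested members, knockout over wild type, with its SE as a bar, against the coding length of the principal transcript in bases (log axis), with 44 large subunit members as circles and 32 small subunit members as squares. Rps29 at 1.29 and Rps28 at 0.97 lie highest, at coding lengths of 168 and 207 bases. The members over 600 bases run from -0.33 to 0.02, with a median of -0.14.

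When each member was set against the mean log2 level of the 76 members in its own library, the libraries split in another way than by amount. Rps29 lay -1.82 to -1.42 from the family mean in the wild-type libraries (log2), and 0.00, 0.11, 0.25, -1.33 and -1.08 in knockout replicates 1 to 5. Rps28 lay -1.35 to -1.17 in wild type and -0.02, 0.01, 0.29, -1.18 and -0.96 in knockout. In knockout replicates 1 to 3 both genes thus came close to or above the family mean. That mean is lowered by members with far lower levels, such as Rpl24 and Rpl36al, at -8.09 and -7.76 in wild type. Reaching it therefore does not mean the level of most members. Knockout replicates 4 and 5 lay nearer to wild type for Rps29 and Rps28, with replicate 4 within the wild-type range for Rps28. Rpl39 was at -0.26, -0.37 and -0.19 in knockout replicates 1 to 3, at -0.926 and -0.998 in replicates 4 and 5, and at -1.06 ± 0.079 in wild type (SD, n = 5). For Rpl37 knockout replicates 4 and 5, at -0.25 and -0.33, lay within the wild-type range of -0.60 to -0.24, and replicates 1 to 3 lay above it. For Rps27, Rps21 and Rpl38 knockout replicate 5 lay with replicates 1 to 3. Rps27 was at -0.11, 0.20, -0.33, -0.70 and -0.23 in knockout replicates 1 to 5, against -0.785 to -0.526 in wild type. Rps21 was at -0.03, 0.14, -0.12, -1.10 and -0.28 in knockout against -1.01 to -0.61, and Rpl38 at -0.29, -0.04, -0.35, -1.09 and -0.54 against -1.20 to -0.94. Replicate 4 was in or under the wild-type range for these 3 genes, and the other 4 knockout libraries were above it. The mean difference from wild type, all 5 knockout libraries included, was 1.24 for Rps29 and 0.92 for Rps28, and stayed between 1.07 and 1.47 and between 0.757 and 1.12 with single libraries left out.

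**Figure D4:**
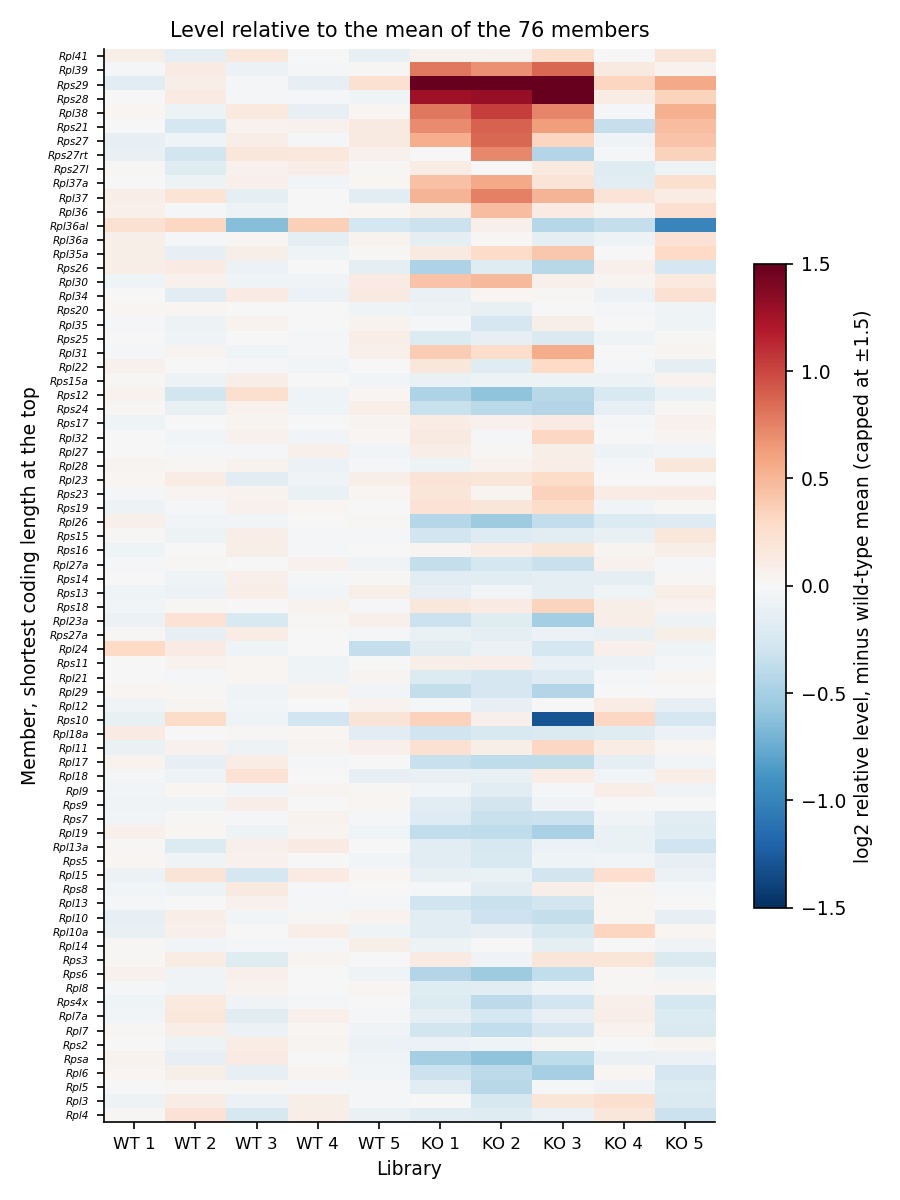
Log2 level of each tested member (rows, shortest coding length at the top) relative to the mean of the 76 members in the same library (columns), shown as the difference from the wild-type mean of that gene, with colours capped at ±1.5. The red block at the top in KO 1, KO 2 and KO 3 holds Rps29, Rps28, Rpl39, Rpl38, Rps21 and Rps27, KO 5 is also red for Rps29, Rps28, Rpl38, Rps21 and Rps27, and KO 4 shows no such block.

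Principal components describe the same split again and are no separate support for it, as they come from the same log2 levels of the members. The first component held 78.3% of their variance and ordered the libraries by the amount of ribosomal protein mRNA, with scores of 0.525 for wild-type replicate 3 and 0.547 for knockout replicate 5, and -0.488 for wild-type replicate 2. The second held 16.6% and gave 0.384, 0.483 and 0.503 to knockout replicates 1 to 3, 0.0743 to knockout replicate 5, -0.2246 to knockout replicate 4, and -0.294 to -0.181 to the wild-type libraries. The slope of member level on log2 coding length was 0.0913 to 0.162 in wild type and 0.153 in knockout replicate 4, -0.0561 in replicate 5, and -0.197, -0.301 and -0.207 in replicates 1 to 3. These splits were seen in the data and are not groups of the study.

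**Figure D5:**
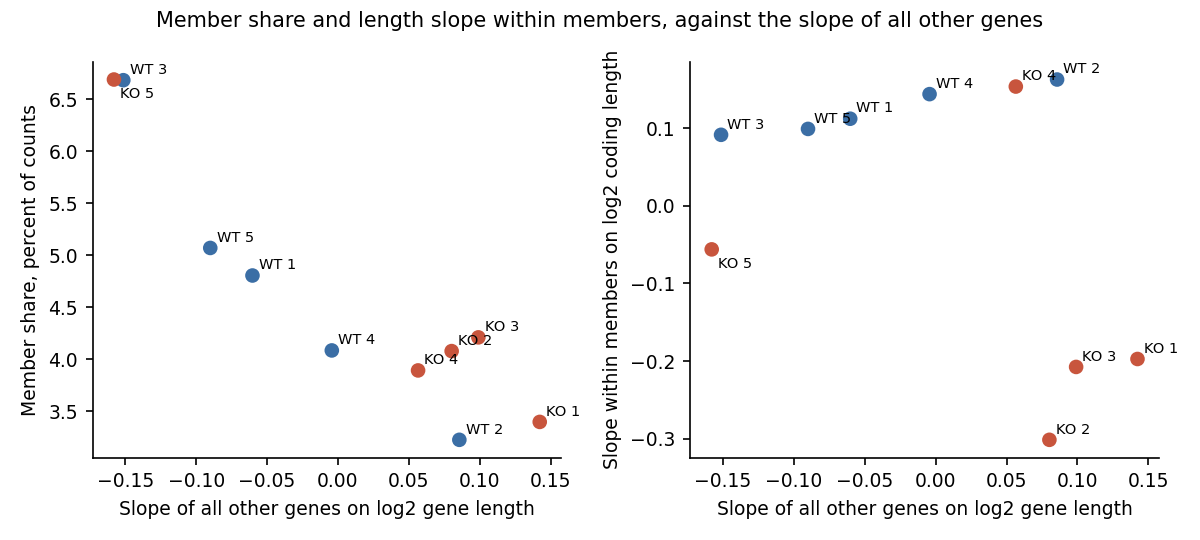
Member share in percent of counts (left) and slope of member level on log2 coding length (right) in each library, both against the slope of all other genes on log2 gene length; blue, wild type; red, knockout. On the left WT 3 and KO 5 combine the lowest slope with the highest share, and on the right KO 1, KO 2 and KO 3 lie at -0.197, -0.301 and -0.207, under all other libraries.

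Most members went up and down together over the libraries. After centring within genotype, the correlation of a member with the mean of the others over the 10 libraries had a median of 0.969, and 63 of 76 members were above 0.9. It was highest for Rps14, a small subunit protein known from the human 5q deletion syndrome, at 0.998, and lowest for Rpl36al at 0.313. Rps10, Rps29, Rps28 and Rpl39 had 0.46, 0.48, 0.53 and 0.75. All members of a library share its depth and preparation, so these values describe the libraries as much as the genes.

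Some members have known roles outside the ribosome. Rpl5 and Rpl11, which bind Mdm2 together with the 5S rRNA when ribosome assembly fails, had log2 ratios of -0.19 (SE 0.24) and 0.13 (SE 0.21), with edgeR adjusted p of 0.716 and 0.777. Rpl11 was at 457, 332, 684, 429 and 547 CPM in wild type and 433, 489, 588, 426 and 754 in knockout, with knockout replicate 5 above and the other 4 within the wild-type range. Rpl26, which binds the p53 mRNA, had -0.35 (SE 0.26, edgeR adjusted p = 0.543), and Rpl23, another Mdm2 partner, 0.12 (SE 0.21, edgeR adjusted p = 0.795).

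Rps6, the substrate of the S6 kinases, was at 889, 531, 1324, 725 and 861 CPM in wild type and 473, 551, 639, 694 and 1223 in knockout. Only knockout replicate 1 was under the wild-type range (log2 ratio -0.27, SE 0.28, edgeR adjusted p = 0.660). Rpsa, also known as the laminin receptor precursor, was at 2174, 1253, 3376, 1793 and 2143 CPM in wild type and 1119.9, 1298, 1560.1, 1579 and 2976 in knockout (log2 ratio -0.33, SE 0.30, edgeR adjusted p = 0.617). Its 5 knockout values overlapped wild type in all but replicate 1. Rps19, the most often mutated gene in human Diamond-Blackfan anaemia, had a log2 ratio of 0.10 (SE 0.24, edgeR adjusted p = 0.863).

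The rest of the chosen members lay in the same band. Rpl10 (-0.19), Rpl22 (-0.01), Rpl3 (-0.03), Rps3 (0.02), Rps4x (-0.23), Rps14 (-0.14), Rps25 (-0.12), Rps27a, made as a fusion with ubiquitin (-0.09), and Rpl13a, known from inflammatory translation control (-0.23), all had log2 ratios within 1.33 SE of 0. Rpl3, Rpl5, Rps25 and Rps27a overlap protein-coding genes on the opposite strand, so their counts carry the same doubt about strand as those of Rps28. The overlapping genes held fewer counts than the members, from 26 for Clhc1 beside Rps27a to 14164 for Trappc4 beside Rps25.

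Levels of different members were compared per kilobase of the table's gene length, which understates genes with long rare isoforms. The highest means over the 10 libraries were those of Rps2 (1092 CPM per kilobase), Rps15 (1076), Rpl17 (974), Rpl36 (782) and Rpl19 (711). In wild type the first 2 were at 1109 ± 390 and 1115 ± 392 CPM per kilobase, and Rpl17 was at 1063 ± 384 (SD, n = 5 each). Rpl36 was at 728 ± 204 and Rpl19 at 784 ± 212. These SDs include the swing in amount that members share across libraries. They do not show whether genes differ within a library, which was not tested. Per kilobase of the principal transcript instead, Rps2 was again first (2003), followed by Rps12 (1697) and Rpl41 (1475).

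The 5 lowest tested members were far from the other 71, which lay between 81.2 and 1092 CPM per kilobase. Rpl36al was at 1.18, Rpl24 at 1.37, Rps10 at 2.18, Rps27rt at 10.5 and Rpl13a at 33.8 CPM per kilobase. Of these 5, 4 share a locus and strand with a second annotated gene that was listed at 0 in all 10 libraries: Gm49383 with Rpl36al, Gm28037 with Rpl24, RPS10-NUDT3 with Rps10 and Gm45713 with Rpl13a. Of the 50-base windows of their transcripts, 63.3, 81.7, 51.8 and 57.4% also occur in other genes, and the gene sharing most of them was the overlapping one in each case. The fifth, Rps27rt, shares 91.1% of its windows with other genes, most with Rps27. One other member, Rpl13, also lies within a longer gene listed at 0 (Gm20388) without being among the lowest. Windows shared with other genes had a median of 52.3% over the members, so sharing of this size was common in the family. Whether the counting discarded reads that lie in both genes was not tested, and the levels of these members are uncertain.

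Of the paralogs known from muscle and testis, Rpl10l and Rpl3l were at or near the floor. So was Rpl39l outside knockout replicates 1 and 5. Rpl10l, a testis paralog of Rpl10, had 0 counts in all 10 libraries, which allows up to 0.153 CPM in the shallowest. Rpl3l, the striated-muscle paralog of Rpl3, had 18 counts over all libraries, at most 5 in any of them. Rpl39l, a testis paralog of Rpl39, had 69 counts, with 0 to 5 in 8 libraries. Of these counts 33 were in knockout replicate 5 (1.65 CPM) and 18 in knockout replicate 1 (0.617 CPM). The 289 rows named as ribosomal protein copies (-ps) took 0.0110 to 0.0277% of counts, or 0.407 ± 0.0146 counts per 100 member counts in wild type and 0.385 ± 0.0430 in knockout (SD, n = 5 each).

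Ribosomal proteins outside the naming rule gave the same picture. Of 9 genes, among them Rack1, a scaffold on the small subunit, 0 were called and 3 had a log2 ratio above 0, with a median of -0.10. Rplp0, of the stalk that binds elongation factors, was at 2278 ± 519 CPM in wild type and 1953 ± 487 in knockout (SD, n = 5 each, log2 ratio -0.22, SE 0.20, edgeR adjusted p = 0.620). Rps3a1, of the small subunit, had a log2 ratio of -0.30 (SE 0.28, edgeR adjusted p = 0.625).

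Other genes that make or use ribosomes were likewise called in 0 cases by edgeR, against 0.0139% of all tested genes. Of 22 genes listed as having TOP mRNAs, translation factors and others, 4 had a log2 ratio above 0 (median -0.20). Hnrnpa1, an RNA-binding protein with a TOP mRNA, was the 1 of them with an unadjusted p under 0.05, at 248 ± 31.9 CPM in wild type and 350.0 ± 25.5 in knockout (SD, n = 5 each). Its log2 ratio was 0.50 (SE 0.11, edgeR adjusted p = 0.217). DESeq2 called 1 gene of this list, against 1.69% of all genes called. Of 36 ribosome biogenesis genes 7 were above 0 (median -0.12), and Wdr12, of the complex that matures the large subunit, had the smallest p (log2 ratio -0.48, SE 0.15, edgeR adjusted p = 0.292).

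All 7 tested chaperones of ribosomal protein assembly had values under 0 (median -0.21), led by Sgta at -0.31 (SE 0.12, edgeR adjusted p = 0.349). Of 17 RNA polymerase I genes 8 were above 0 (median -0.06), and of 10 tested host genes of snoRNAs 7 were (median 0.06). Of 17 genes listed for mTORC1 signalling and TOP mRNA control, Myc and Max included, 10 were above 0 (median 0.10). In that list Akt1s1, an inhibitor of mTORC1, had -0.34 (SE 0.10, edgeR adjusted p = 0.284) and Rps6kb1, the kinase of Rps6, 0.38 (SE 0.15, edgeR adjusted p = 0.349). The medians of these lists stand beside -0.01 for all tested genes, of which 48.4% had a log2 ratio above 0.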

How the data were processed

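Raw counts of reads per gene were deposited for 10 poly(A)-selected RNA-seq libraries as 1 table, with no normalization, per the file headers and values. Per the submitters' processing notes, mm10 was the build, and the tools named are HTSeq 0.6.1, STAR 2.5 and DESeq2. What each did, the strand setting and the annotation release are not given in the sources. The total count was 19603933 to 29944615, and the floor of 3 counts covers counting error only. No pair of libraries agreed within sampling noise (lowest chi-square per degree of freedom 19.2).

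Genes were filtered with filterByExpr and tested with edgeR 4.0.16 (R 4.3.3; TMM, quasi-likelihood F test, all 10 libraries, no covariate), with Benjamini-Hochberg adjustment over 14360 genes. Prior degrees of freedom were 3.70, at a biological coefficient of variation of 26.2%. The SE of a log2 fold change is its size over the square root of F. For log2 CPM the prior count was 2. The code was tested on simulated counts. Alternatives used DESeq2 1.42.0, limma 3.58.1 and sva 3.50.0. Coding lengths and windows of 50 bases came from the mm10 GENCODE reference transcripts, with the principal transcript of each gene.

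Members named were the 8 with the smallest p, the 5 highest and 5 lowest per length, those of highest and lowest correlation, and a fixed set, of which Rps4l is annotated as a pseudogene and is no member. From other lists up to 3 genes with the smallest p could be named. The members and lists were chosen with earlier results of these data known. Of 20 RNA polymerase I symbols, 17 were matched. Replicate numbers gave no sign of a pairing of the libraries, and the reported fit used none. The single values of 1 gene outside the naming rule are not reported here.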

Additional observations from a re-analysis of the deposited data

Results flagged for a closer look

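In the knockout group 1 library, replicate 5, stood apart from the other 4 by Dixon's test, in which the gap to the nearest library is divided by the group's range and compared with 0.71. Of 40 groups of 5 values tested, 5 passed, and chance alone passes about 1 in 20. The ratio was 0.753 for the members' percent of all counts, which ran from 3.40 to 6.69% in knockout, 0.758 for the large subunit and 0.747 for the small subunit. It was 0.749 for Rpl26, which ran from 353 to 828 CPM, and 0.753 for Rpsa, from 1119.9 to 2976 CPM. All 5 values rest on the same library, so they are not separate events.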

How the results depend on the processing

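Over 24 alternative settings, the number of members called stayed at 0 except with DESeq2, which called 1, Rps29. Its adjusted p was 0.0103 with DESeq2 and 0.0538 to 0.996 under the others. Of all genes, 0.0139% were called in the reported fit, 0.0279% with the length slope as a covariate and 1.69% with DESeq2. That share was not worked out for the other settings, so a steady 0 does not tell the family from other genes. The number of members with a log2 ratio of knockout to wild type above 0, 25 in the reported fit, was 75 with 1 surrogate variable and 75 with the length slope as a covariate, 46 with a length and GC offset, 47 with a length offset, and 38 when scaled to the summed member counts, an alternative chosen after seeing the data. It ranged from 10 to 55 with single libraries left out. Of all genes, 48.4% were above 0 in the reported fit and 48% with the length slope as a covariate. Log2 ratios turned above 0 with the surrogate variable and the length slope for Rpsa (0.0745 and 0.0786), Rpl26 (0.0072 and 0.0107), Rps6 (0.11 in both) and Rpl5 (0.14 in both). With single libraries left out, Rpl11 ranged from -0.0212 to 0.283 and Rps19 from -0.0593 to 0.299. The cause was not tested. Rps29, from 1.12 to 1.501, and Rps28, from 0.79 to 1.18, kept their direction throughout. The fit without wild-type replicate 3 and knockout replicate 5 was also chosen after seeing the data.

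The replicate numbers are shared by the genotypes. Correlations of same-numbered libraries were -0.207, 0.229, -0.0803, -0.236 and 0.376, within the range of differently numbered ones, -0.593 to 0.511. They show no pairing, but so few values cannot exclude one. With the replicate as a block, 0 members were called, 27 had a log2 ratio above 0 and the median was -0.07. The shares over all genes were not worked out for this fit, so these counts do not tell the family from other genes.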
